A study of Homo sapiens with 6 samples.

Results

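In K562 cells lacking ARID4B, 61 genes of the 34495 rows of a gene count table had a clear level in every knockout library, against next to no reads in wild type. They were chosen by level alone. Each had under 0.2 CPM (counts scaled by the library total) in each of the 3 wild-type libraries and 1 CPM or more in each of the 3 ARID4B knockout libraries, which 82 genes met. Of these, 21 were then left out by name, among them ETS1, GBP4, GBP5 and zinc finger genes with ZNF symbols. K562 is an established human erythroleukemia line, grown here in RPMI medium with serum, and both groups were otherwise untreated. The groups were ARID4B knockout K562 (3 libraries, KO) and wild-type K562 (3 libraries, WT). In 1 label field the knockout cells are called K565, while all other labels name K562. The labels give no clone, culture or day for a replicate, and the sources used here do not say how the knockout was made. All p-values below therefore rest on the spread between these libraries alone, which may be technical.

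ARID4B belongs to the SIN3-HDAC corepressor and binds DNA. The corepressor is a complex that removes acetyl groups from histones at the genes to which it is recruited. Genes of other tissues are kept silent in a blood cell line in several ways, including histone deacetylation, Polycomb marks, DNA methylation of CpG-rich promoters and the plain lack of an activating transcription factor. A promoter rich in CpG dinucleotides is typical of widely used and developmental genes, and a promoter poor in them is typical of genes used in few tissues.

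Both kinds of promoter were present among the 61 genes. Shown here are the 250 bases before the RefSeq start (GRCh38.p14) of the 2 genes with the highest and the 2 with the lowest ratio of observed to expected CpG among the 16 members with the highest mean knockout CPM that have a RefSeq promoter entry, with every CpG in capitals, because they show how far apart the members' promoters are in sequence. They are TANC1 (chr2:158968390-158968639, plus strand), PTPN14 (chr1:214551603-214551852, minus strand), FHL1 (chrX:136146452-136146701, plus strand) and PLEK (chr2:68365032-68365281, plus strand).
TANC1: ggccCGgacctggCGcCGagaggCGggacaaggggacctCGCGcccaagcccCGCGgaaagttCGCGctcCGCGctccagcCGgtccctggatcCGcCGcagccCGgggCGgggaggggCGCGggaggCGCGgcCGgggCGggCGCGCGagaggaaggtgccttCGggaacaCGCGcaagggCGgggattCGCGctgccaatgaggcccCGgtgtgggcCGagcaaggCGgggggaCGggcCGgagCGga
PTPN14: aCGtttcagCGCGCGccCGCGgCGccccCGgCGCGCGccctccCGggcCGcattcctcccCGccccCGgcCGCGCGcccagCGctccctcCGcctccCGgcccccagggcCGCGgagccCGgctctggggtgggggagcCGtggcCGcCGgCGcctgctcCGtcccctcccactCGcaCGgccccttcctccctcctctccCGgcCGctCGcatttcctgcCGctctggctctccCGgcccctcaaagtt
FHL1: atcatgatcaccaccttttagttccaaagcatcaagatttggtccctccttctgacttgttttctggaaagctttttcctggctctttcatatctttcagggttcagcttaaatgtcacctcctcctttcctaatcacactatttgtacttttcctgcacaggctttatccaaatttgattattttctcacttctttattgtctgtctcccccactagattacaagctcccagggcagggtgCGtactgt
PLEK: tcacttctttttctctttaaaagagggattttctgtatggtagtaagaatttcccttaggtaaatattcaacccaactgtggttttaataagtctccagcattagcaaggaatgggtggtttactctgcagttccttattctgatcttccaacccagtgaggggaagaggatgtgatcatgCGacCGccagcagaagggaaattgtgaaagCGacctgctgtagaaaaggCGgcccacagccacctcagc
The TANC1 stretch holds 38 CpGs and the PTPN14 stretch 36, against 1 in the FHL1 and 4 in the PLEK stretch.

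The targeted gene came first as a check of the labels. ARID4B had 8.98, 7.47 and 7.89 CPM in KO replicates 1 to 3, against 36.7, 39.5 and 39.5 CPM in WT replicates 1 to 3. The groups did not overlap, at -2.36 on the log2 scale, KO over WT (SE 0.10, adjusted p = 0.000132 by edgeR's quasi-likelihood test). The libraries held between 21701404 and 30346244 estimated counts. The KO libraries had counts in 18299 to 19188 genes and the WT libraries in 16593 to 16835. Over 13696 tested genes, 33.7% passed the threshold of an adjusted p under 0.05, 18.3% higher and 15.4% lower in KO.

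Being silent in wild type seldom went with being on in the knockout. Of 19960 genes under 0.2 CPM in each WT library, the 82 within both limits were 0.411%. With the groups exchanged, 17356 genes were under 0.2 CPM in each KO library and 1 of them, KIAA1932, was at 1 CPM or more in each WT library (0.00576%). KIAA1932 had 0 CPM in all KO libraries, against 1.94, 2.15 and 3.16 CPM in WT replicates 1 to 3. Among the silent genes, 527 were on in exactly 1 KO library, 148 in exactly 2 and 82 in all 3, while 19203 were on in none. KO replicate 1 held 532 such genes, KO replicate 2 held 361 and KO replicate 3 held 176. Of these, 328, 159 and 40 were on in that library alone. The limits are close to the counting floor: 0.2 CPM is between 4.79 and 6.07 counts in a WT library, and 1 CPM is between 21.7 and 24.3 counts in a KO library. In bulk RNA, a low level in all cells and a high level in a few cells cannot be told apart.

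**Figure D1:**
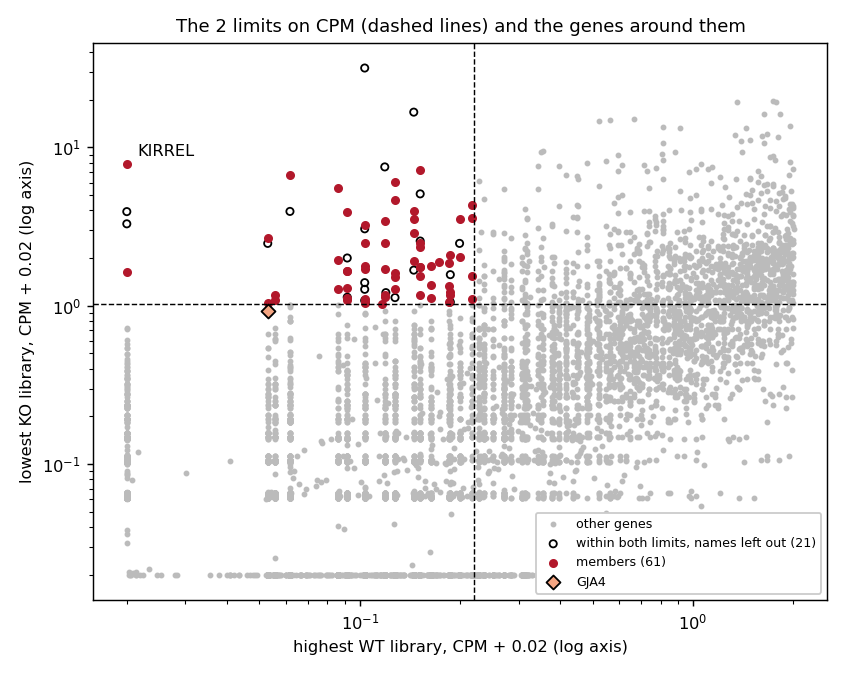
Each point is a gene, placed by its highest level among the 3 wild-type libraries (horizontal) and its lowest level among the 3 ARID4B knockout libraries (vertical), both as CPM + 0.02 on log axes, for genes up to 2 CPM on the horizontal axis. The dashed lines are the limits of 0.2 and 1 CPM. The 61 members (red) fill the upper left corner with the 21 genes left out by name (open), and GJA4 (diamond) lies just under the knockout limit.

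The members' levels set the groups far apart, which the choice of members fixed in advance, so no test is given on them. All 61 passed the expression filter of the test, and they did so through their KO counts. Every KO library lay above every WT library for all of them by that choice, and for 33.6% of the 13696 tested genes. Summed over the members, the counts were 9833, 6432 and 5038 in KO replicates 1 to 3, against 113, 142 and 95 in WT replicates 1 to 3. A member's mean over the KO libraries had a median of 4.11 CPM (1.39 to 19.8), against a median of 0.0688 CPM (0 to 0.169) over the WT libraries. In the KO, 22 members averaged 5 CPM or more and 6 averaged 10 CPM or more. KIRREL and PDK4 had no WT count at all, 13 members had 1 to 3 counts over the 3 WT libraries together, and the other 46 had up to 14. The ratio of summed counts scaled by library totals, KO over WT, had a median of 57.6 (14.1 to 1601) over the 59 members with a WT count. CPM values are not scaled by transcript length, so the order of genes by CPM is not an order of transcript numbers.

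**Figure D2:**
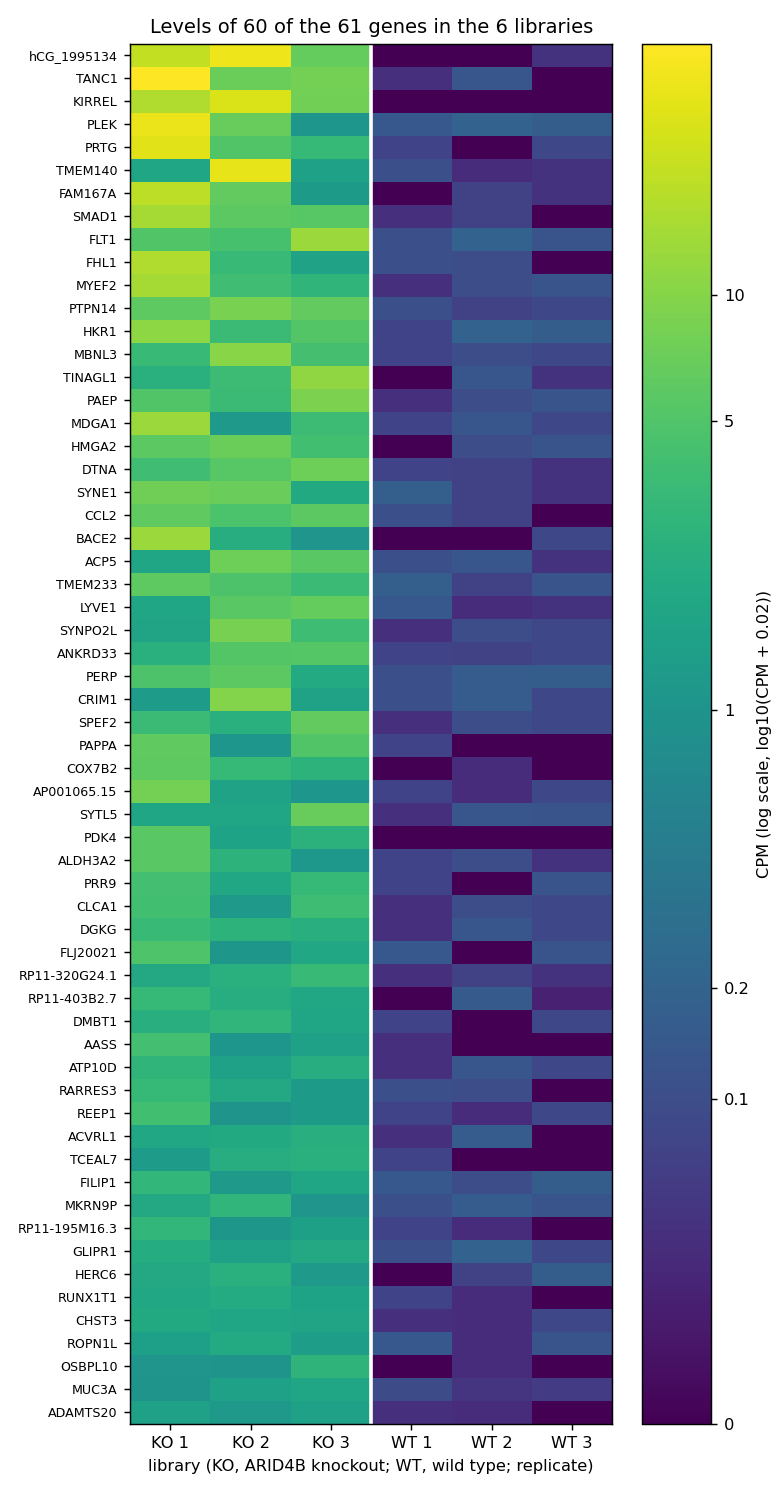
Each row is 1 of 60 of the 61 members, ordered from the highest mean knockout CPM at the top, and each column a library, with the ARID4B knockout (KO) libraries left of the wild-type (WT) libraries. Colour gives CPM on a log scale with 0.02 added. All KO cells lie at 1 CPM or more and all WT cells under 0.2 CPM, and the KO columns differ from each other within many rows.

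Cell surface and adhesion proteins made up 9 members. KIRREL (chr1:157963063-158065844, hg19) encodes an immunoglobulin-type adhesion protein that binds nephrin in the slit diaphragm of kidney podocytes. KIRREL had 15.98, 26.3 and 7.89 CPM in KO replicates 1 to 3, against 0 in every WT library. Its KO counts were 388, 571 and 183, and against a floor of 3 counts over the WT group its level was at least 452-fold higher in KO. PRTG encodes protogenin, an immunoglobulin-type receptor of the embryonic nervous system. PRTG had 28.4, 5.11 and 3.23 CPM in KO replicates 1 to 3, against 0.0717, 0 and 0.0835 CPM in WT replicates 1 to 3, and most of its KO counts came from replicate 1. FLT1 is the VEGF receptor 1 of endothelium and monocytes, and unlike PRTG it stood highest in KO replicate 3. FLT1 had 5.02, 4.33 and 12.8 CPM in KO replicates 1 to 3, against 0.108, 0.198 and 0.125 CPM in WT replicates 1 to 3. ACVRL1, an endothelial receptor for bone morphogenetic proteins also called ALK1, varied little within the KO. ACVRL1 had 1.85, 1.98 and 2.37 CPM in KO replicates 1 to 3, against 0.0359, 0.165 and 0 CPM in WT replicates 1 to 3. Other members of this class were MDGA1 (a neuronal adhesion protein), LYVE1 (the hyaluronan receptor of lymphatic vessels), CRIM1 (a membrane protein that binds bone morphogenetic proteins) and PERP (a desmosomal protein induced by p53). Over the class, mean KO levels had a median of 4.71 CPM (2.07 to 16.7).

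GJA4, the gap junction protein connexin 37 of arterial endothelium (chr1:35258171-35261348, hg19), had been set beside KIRREL as a marker of this pattern, but it falls outside the limits. GJA4 had 16.2, 6.41 and 0.905 CPM in KO replicates 1 to 3, against 0, 0.033 and 0 CPM in WT replicates 1 to 3. In counts these were 393, 139 and 21 in KO and 0, 1 and 0 in WT, a ratio of 657 after scaling by library totals (exact 95% interval 117 to 25995). KO replicate 3 is thus just under the limit of 1 CPM and still above every WT library. Such intervals cover counting error only.

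The nuclear and RNA-binding proteins were 7 members. SMAD1, which carries bone morphogenetic protein signals from receptors such as ACVRL1 to the nucleus, had 14.3, 5.94 and 5.52 CPM in KO replicates 1 to 3, against 0.0359, 0.0659 and 0 CPM in WT replicates 1 to 3. Its 3 WT counts gave a ratio of 239 (exact 95% interval 81.5 to 1163). MYEF2 encodes a nucleic acid-binding protein named for its control of the myelin basic protein gene, and KO replicate 1 was again the highest. MYEF2 had 14.5, 3.92 and 2.84 CPM in KO replicates 1 to 3, against 0.0359, 0.0989 and 0.125 CPM in WT replicates 1 to 3. HKR1, a KRAB zinc finger protein that RefSeq lists as ZNF875 and that would have been left out under that symbol, had 11.1, 3.55 and 5.17 CPM in KO replicates 1 to 3, against 0.0717, 0.198 and 0.167 CPM in WT replicates 1 to 3. MBNL3, a muscleblind splicing regulator, instead peaked in KO replicate 2. MBNL3 had 3.42, 10.2 and 4.22 CPM in KO replicates 1 to 3, against 0.0717, 0.0989 and 0.0835 CPM in WT replicates 1 to 3. RUNX1T1, the corepressor ETO that is fused to RUNX1 in acute myeloid leukemia, was among the most even members. RUNX1T1 had 1.85, 2.12 and 1.64 CPM in KO replicates 1 to 3, against 0.0717, 0.033 and 0 CPM in WT replicates 1 to 3. HMGA2, an architectural chromatin protein of embryonic cells, averaged 5.73 ± 1.69 CPM in KO and 0.0747 ± 0.0660 CPM in WT (SD, n = 3 each). TCEAL7, a nuclear protein of the transcription elongation factor A-like family, completed the class.

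The scaffold and cytoskeletal proteins were 7 members. TANC1, a scaffold of excitatory synapses, had 39.8, 7.14 and 8.06 CPM in KO replicates 1 to 3, against 0.0359, 0.132 and 0 CPM in WT replicates 1 to 3. PLEK encodes pleckstrin, the main protein kinase C substrate of platelets and also present in leukocytes, and it was the most uneven of the 61 genes. PLEK had 32.3, 6.91 and 1.08 CPM in KO replicates 1 to 3, against 0.143, 0.198 and 0.167 CPM in WT replicates 1 to 3. The highest KO library was thus 29.99 times the lowest. FHL1, a LIM-domain protein of muscle, had 16.305, 3.41 and 1.59 CPM in KO replicates 1 to 3, against 0.108, 0.0989 and 0 CPM in WT replicates 1 to 3. DTNA (alpha-dystrobrevin), SYNE1 (nesprin-1, which ties the nuclear envelope to the cytoskeleton), SYNPO2L (an actin-associated protein of heart muscle) and FILIP1 (a filamin-binding protein) averaged between 1.99 and 5.63 CPM in KO.

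Secreted and extracellular proteins were 8 members. TINAGL1, a matricellular protein, had 2.47, 3.69 and 11.3 CPM in KO replicates 1 to 3, against 0, 0.132 and 0.0417 CPM in WT replicates 1 to 3. CCL2, the chemokine that attracts monocytes, had 6.22, 4.61 and 5.95 CPM in KO replicates 1 to 3, against 0.108, 0.0659 and 0 CPM in WT replicates 1 to 3. TINAGL1 was thus carried by KO replicate 3, and CCL2 was nearly even. PAEP (glycodelin, a lipocalin of the endometrium), PAPPA (a metalloprotease that cleaves insulin-like growth factor binding proteins), DMBT1 (a mucosal scavenger-receptor protein), CLCA1 (a secreted product of goblet cells) and ADAMTS20 (a metalloprotease of the extracellular matrix) averaged between 1.39 and 5.79 CPM in KO. MUC3A, an intestinal mucin, was the member nearest the limit. MUC3A had 1.003, 1.52 and 1.8 CPM in KO replicates 1 to 3, against 0.0968, 0.0445 and 0.0559 CPM in WT replicates 1 to 3, and mucins share repeated sequence that makes their counts uncertain.

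Enzymes and proteins of metabolism and membrane traffic were 15 members, with a median mean KO level of 2.79 CPM (1.60 to 7.002). PTPN14 encodes a tyrosine phosphatase that binds the Hippo pathway coactivator YAP. PTPN14 had 6.01, 8.57 and 6.42 CPM in KO replicates 1 to 3, against 0.108, 0.0659 and 0.0835 CPM in WT replicates 1 to 3, an even level in the KO. PDK4, a kinase that shuts off pyruvate dehydrogenase, had 5.64, 1.61 and 2.63 CPM in KO replicates 1 to 3, against 0 in every WT library, at least 92.3-fold higher in KO against the same floor. CHST3, a chondroitin sulfotransferase, was the most even member. CHST3 had 2.02, 1.71 and 1.68 CPM in KO replicates 1 to 3, against 0.0359, 0.033 and 0.0835 CPM in WT replicates 1 to 3. OSBPL10, an oxysterol-binding protein relative, had 1.03, 1.01 and 2.76 CPM in KO replicates 1 to 3, against 0, 0.033 and 0 CPM in WT replicates 1 to 3. REEP1, which shapes the endoplasmic reticulum, was also close to the limit in KO replicate 2. REEP1 had 3.99, 1.01 and 1.25 CPM in KO replicates 1 to 3, against 0.0717, 0.033 and 0.0835 CPM in WT replicates 1 to 3. The remaining 10 were BACE2 (an aspartyl protease), ACP5 (the tartrate-resistant acid phosphatase of osteoclasts), ALDH3A2 (fatty aldehyde dehydrogenase), AASS (the entry enzyme of lysine breakdown), COX7B2 (a relative of a cytochrome c oxidase subunit), DGKG (a diacylglycerol kinase), ATP10D (a phospholipid flippase), RARRES3 (a retinoid-inducible phospholipase that RefSeq lists as PLAAT4), SYTL5 (a synaptotagmin-like protein of vesicle traffic) and HERC6 (a ubiquitin ligase relative induced by interferon).

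The sperm tail and cilium proteins SPEF2 and ROPN1L averaged 4.12 ± 1.99 and 1.62 ± 0.399 CPM in KO (SD, n = 3). Another 6 coding members had no common theme. TMEM140 stood far higher in KO replicate 2 than in the other KO libraries. TMEM140 had 1.73, 29.8 and 1.51 CPM in KO replicates 1 to 3, against 0.108, 0.033 and 0.0417 CPM in WT replicates 1 to 3. FAM167A had 18.9, 6.41 and 1.25 CPM in KO replicates 1 to 3, against 0, 0.0659 and 0.0417 CPM in WT replicates 1 to 3. TMEM233, ANKRD33, PRR9 (a proline-rich gene of the epidermal differentiation region) and GLIPR1 (a member of the CAP protein family) averaged between 1.88 and 4.82 CPM in KO.

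The last 7 members were rows without an established protein. Annotation of these was partial: GENCODE 29 lists the 4 named by Ensembl identifiers as long intergenic noncoding RNAs. AP001065.15 is LINC02575 there, on chromosome 21, so it would have been left out by name under its newer symbol. RP11-195M16.3 (AL450468.2) lies 12380 bases from CSF1 (GRCh38), RP11-320G24.1 (AC091806.1) lies 85587 bases from BCOR, and RP11-403B2.7 (AC012414.5) is on chromosome 15. MKRN9P is a transcribed pseudogene of the makorin family, so its reads are uncertain. The other rows were FLJ20021 and hCG_1995134, both described with their neighbours.

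The KO libraries often differed from each other at these genes. The highest KO library stood at least 2-fold above the lowest for 42 of 61 members (68.9%), against 19.3% of 13610 tested genes outside the limits. Among 4419 of those genes with mean KO levels in the members' range and 1 CPM or more in each KO library the share was 25.6%. The ratio of the highest to the lowest KO library had a median of 2.85 over the members (1.2 to 29.99). It was 5 or more for 14 members, 10 or more for 6 and under 2 for 19. KO replicate 1 was the highest library for 32 members, replicate 2 for 15 and replicate 3 for 14 (52.5%, 24.6% and 23.0%), against 40.1%, 29.1% and 30.8% of the 13610 genes. The orders were mixed: 16 members ran replicate 1, 2, 3 from high to low, among them PLEK, PRTG, SMAD1 and FHL1. Another 16 ran replicate 1, 3, 2, among them TANC1, HKR1 and CCL2. A group of 10 that included KIRREL, hCG_1995134, TMEM140 and HMGA2 ran 2, 1, 3, and 10 that included TINAGL1, DTNA, LYVE1 and ACVRL1 ran 3, 2, 1. PTPN14, MBNL3, ACP5, SYNPO2L and CRIM1 ran 2, 3, 1, and FLT1, PAEP, SPEF2 and OSBPL10 ran 3, 1, 2. No common order of the libraries held for the list.

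**Figure D3:**
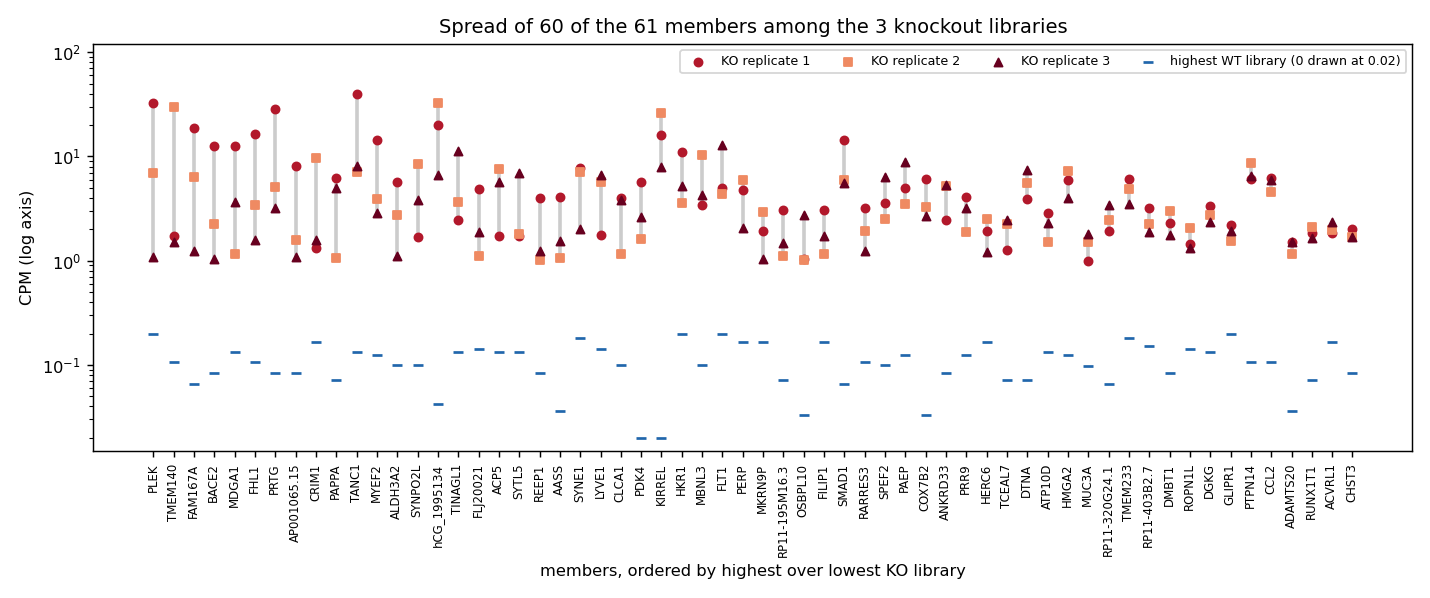
Each column is 1 of 60 of the 61 members, and the red circle, orange square and dark triangle are its CPM in KO replicates 1, 2 and 3 on a log axis, joined by a grey line. The blue dash is its highest wild-type library, with 0 drawn at 0.02. Members run from PLEK, whose KO libraries differ 29.99-fold, to CHST3, whose KO libraries differ 1.2-fold, and all KO points lie above the dashes.

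A choice made on 2 KO libraries and all WT libraries can be read in the third KO library, which it did not use. The names left out above stay out here. Without KO replicate 1, 81 genes met the limits, and 61 of them (75.3%) were at 1 CPM or more in replicate 1, where 2.44% of all 18968 genes silent in WT were. Without KO replicate 2, 86 genes met them, and 61 (70.9%) were on in replicate 2, against 1.65% of the silent genes. Without KO replicate 3, 143 genes met them and 61 (42.7%) were on in replicate 3, against 0.749%. In that library 130 of the 143 still lay above every WT library, and 30 were under 0.2 CPM. The count of members thus depends most on KO replicate 3: it is 143 without it. Read the other way, with 1 WT library left out of the choice, 81, 70 and 80 genes met the limits without WT replicate 1, 2 and 3. Of these, 61 were under 0.2 CPM in the WT library left out, or 75.3%, 87.1% and 76.3%. Of all genes under 0.2 CPM in the other WT libraries, 98.6%, 99.2% and 98.6% were.

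The limits cut through a continuum. Just outside on the KO side were TACC2, GPR155 and CCDC149, with lowest KO libraries of 0.991, 0.991 and 0.988 CPM. Just outside on the WT side were ADRA1D, STC1 and ABTB1, each with a highest WT library of 0.209 CPM. STC1, the secreted hormone stanniocalcin 1, had 46.2, 6.13 and 46.5 CPM in KO replicates 1 to 3, against 0, 0.0989 and 0.209 CPM in WT replicates 1 to 3.

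The members were scattered over the genome, with few close pairs. The 57 with a position in the table lay on 19 chromosomes, with 7 on chromosome 12, 6 on chromosome 1 and 5 on chromosome 4. KIRREL and hCG_1995134 (chr1:158066316-158069836, hg19) formed the closest pair, with 471 bases between them. From the start of KIRREL to the end of hCG_1995134 is 106774 bases, and RefSeq gives KIRREL1 a length of 106618 bases, close to that distance. Whether both rows count the same transcript was not tested. hCG_1995134 had 19.9, 32.7 and 6.64 CPM in KO replicates 1 to 3, against 0, 0 and 0.0417 CPM in WT replicates 1 to 3. Its level was 1.25, 1.24 and 0.842 times that of KIRREL in KO replicates 1 to 3, with no scaling by length. Counted as 1 gene, they leave 60 members. ACVRL1 and ANKRD33 lay 15186 bases apart on chromosome 12, and ATP10D and COX7B2 lay 576157 bases apart on chromosome 4. BACE2 lay 85425 bases from MX2, and HKR1 lay 314904 bases from ZNF568, both among the names left out.

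Whether the wider chromosome stretch around a member stood higher as well was read from the 10 expressed genes on each side, as their median log2 difference of a KO library from WT, relative to all such genes. Over members and libraries this had a median of 0.0425. It passed 0.5 in a KO library for 2 members, KIRREL and hCG_1995134, which share the same block, at 0.671 in KO replicate 2, and for no member in all KO libraries. SYTL5 had the lowest block, -0.504 in KO replicate 1. The count depended on block size: with 5 genes on each side 5 members passed 0.5 in a KO library (up to 0.778, in KO replicate 2), and with 20 genes 2 did. None did so in all KO libraries. The KO level of KIRREL was highest in replicate 2, where its block stood highest, and the part of the block in it was not tested.

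The nearest tested genes beside the members did differ between the groups in some places. Of 109 such genes, 35 (32.1%) were higher and 14 (12.8%) lower in KO, against 18.3% and 15.4% of all 13696 tested genes, with a median log2 fold change of 0.18, against 0.02. Genes with few WT reads enter the test through their KO reads, and most of the difference in the median was gone without them. Among the 83 with 1 CPM or more in each WT library, 18 (21.7%) were higher and 13 (15.7%) lower, against 13.8% and 18.1% of 11567 such genes, and the median was 0.0094, against -0.040. The following neighbours were named after their values were seen. FLJ20021 (chr4:102268934-102270040, hg19) begins 305 bases from PPP3CA (chr4:101944587-102268628), which encodes the catalytic subunit of calcineurin, and RefSeq lists FLJ20021 as PPP3CA-DT, a transcript that diverges from it. PPP3CA had 50.9, 9.77 and 19.5 CPM in KO replicates 1 to 3, against 2.15, 2.54 and 2.21 CPM in WT replicates 1 to 3, with no overlap (log2 fold change 3.42, SE 0.60, edgeR adjusted p = 0.00679). FLJ20021 followed the same order at 4.90, 1.11 and 1.90 CPM in KO replicates 1 to 3, against 0.143, 0 and 0.125 CPM in WT replicates 1 to 3. Its level was 9.64%, 11.3% and 9.74% of that of PPP3CA in KO replicates 1 to 3, against 6.67%, 0% and 5.66% in WT replicates 1 to 3.

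Next to TCEAL7 on chromosome X, BEX2 and WBP5, of the related BEX and TCEAL families, were also higher in KO. BEX2 had 21.6, 18.02 and 17.4 CPM in KO replicates 1 to 3, against 4.27, 4.62 and 5.26 CPM in WT replicates 1 to 3 (log2 fold change 1.90, edgeR adjusted p = 0.000792). WBP5 had 65.1, 67.4 and 67.7 CPM in KO replicates 1 to 3, against 22.6, 24.3 and 25.1 CPM in WT replicates 1 to 3 (1.37, adjusted p = 0.000277). Both were expressed in wild type, and TCEAL7 was not. Beside ACVRL1, ACVR1B, a related activin receptor, was 32.8 ± 5.76 CPM in KO and 15.8 ± 0.772 CPM in WT (SD, n = 3 each, log2 fold change 0.94, adjusted p = 0.00435). MRVI1, beside LYVE1, was 2.03 ± 1.35 CPM in KO and 0.0788 ± 0.0826 CPM in WT (4.41, adjusted p = 0.0104), and lost the call without WT replicate 1 (adjusted p = 0.0629).

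**Figure D4:**
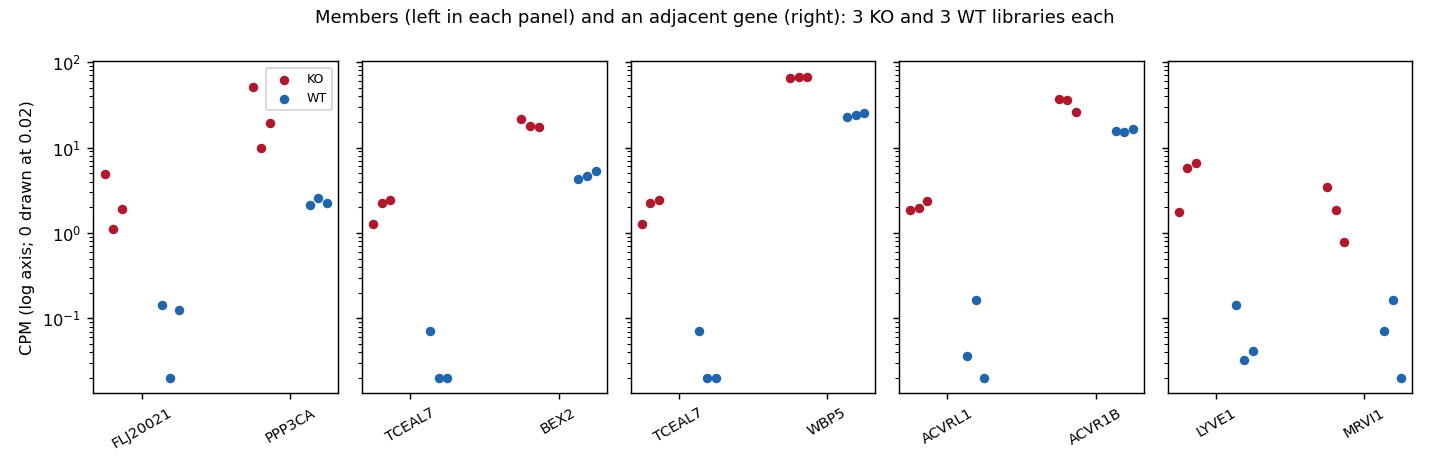
Each panel sets a member (left) beside an adjacent gene (right), with the 3 KO libraries (red) left of the 3 WT libraries (blue), in CPM on a log axis with 0 drawn at 0.02. The adjacent genes PPP3CA, BEX2, WBP5 and ACVR1B had reads in all WT libraries, from 2.15 CPM upward, while the members beside them were under 0.2 CPM in WT, and in each panel both genes are higher in KO.

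The members' promoters lay between those of silent and of expressed genes in CpG content, a property the choice did not use. RefSeq gave a promoter window (250 bases before to 50 after the start) for 38 of the 61 members, all coding. A window was called CpG-rich at a GC content of at least 50% and an observed over expected CpG ratio of at least 0.6. This held for 20 of the 38 members (52.6%), against 32.9% of 6316 other genes under 0.2 CPM in each WT library, 83.7% of 8873 genes at 1 CPM or more in each WT library and 62.3% of all 16680 matched genes. The median ratio was 0.63 for the members, against 0.36 for the silent and 0.86 for the expressed genes. A stricter definition (GC of at least 55%, ratio of at least 0.75) left 10 members. It was not applied to the other genes, so that count does not place the members between them. The spans of the 54 members that RefSeq lists as coding had a median of 64.5 kb, against 18.3 kb for 6848 silent and 29.5 kb for 10357 expressed coding genes. The limit of 1 CPM is not scaled by transcript length, and the part of this in the longer spans was not tested.

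**Figure D5:**
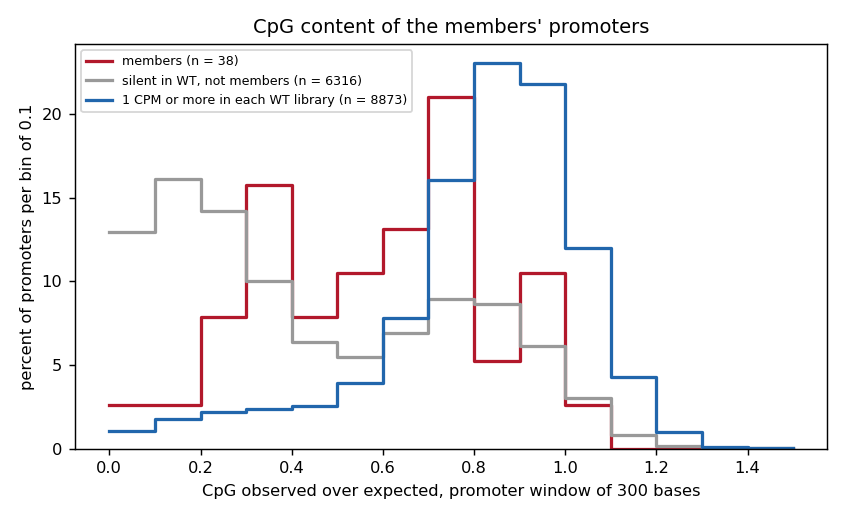
The horizontal axis is the ratio of observed to expected CpG in the 300-base promoter window and the vertical axis the percent of promoters in each bin of 0.1. The 38 members (red) lie between the 6316 other genes silent in wild type (grey), with a median of 0.36, and the 8873 genes expressed in wild type (blue), with a median of 0.86.

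Short motifs were searched for in the same windows on both strands. The motif TGANTCA, a loose form of the AP-1 site of FOS and JUN dimers, occurred in 8 of 38 members (21.1%). It occurred in 8.93% of the silent genes, 4.07% of the expressed genes and 6.08% of all promoters. The AP-1 site itself has C or G as its middle base, while the search allowed any base. The middle base was A or T in SYTL5, REEP1 and COX7B2. The windows that hold TGANTCA are shown with 10 bases on each side, the motif in capitals. It is the motif whose share among members stood furthest above that of all promoters as a ratio. Positions (GRCh38.p14, RefSeq starts) are PAEP at chr9:135561651-135561677, plus strand, PERP at chr6:138107504-138107530, minus strand, SYTL5 at chrX:38006307-38006333, plus strand, OSBPL10 at chr3:31981295-31981321, minus strand, REEP1 at chr2:86338272-86338298, minus strand, PRR9 at chr1:153217437-153217463, plus strand, SMAD1 at chr4:145481251-145481277, plus strand, COX7B2 at chr4:46909406-46909432, minus strand.
PAEP: gggccaaggaTGAGTCAcaggttcgag
PERP: gggcgcgctcTGAGTCAccggaatcta
SYTL5: attaaaagagTGAATCAcctttaaaac
OSBPL10: tcctcctgtaTGAGTCAggcatttccc
REEP1: aagaaggagcTGAATCAaaccaaggca
PRR9: tcccaagcagTGACTCAaaccatcggc
SMAD1: acgcatctgtTGACTCAgggtttgtat
COX7B2: ttcttttgttTGATTCAttacagaggg
The ETS motif CCGGAAG occurred in none of the 38 members' windows, against 4.05% of the silent and 21.9% of the expressed genes, while its shorter core GGAAG, which overlaps it, occurred in 78.9%, against 69.6% and 77.6%. The TATA motif TATAAA occurred in 13.2% of the members, against 16.4% and 5.03%, the SP1 motif GGGCGG in 50%, against 36.2% and 72.0%, and the GATA motif GATAA in 15.8%, against 26.4% and 13.3%. The RUNX motif TGTGGT occurred in 10.5%, against 14.6% and 8.98%, the CRE motif TGACGTCA in 2.63%, against 1.39% and 3.57%, and the E-box CANNTG in 63.2%, against 73.0% and 59.0%. With 38 windows, 1 window is 2.63%, so differences of a few percent rest on few genes. A match is a description of the letters and not a bound site.

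Close relatives of 15 members were expressed in wild type. The relatives were picked from textbook gene families after the values were seen, 44 for 31 members, and they get no test. Of the 44, 19 (43.2%) were at 1 CPM or more in each WT library, against 33.5% of all rows of the table and 53.2% of those matched to a RefSeq promoter, 17 were under 0.2 CPM in each and 8 lay between. SMAD5, the closest relative of SMAD1, had 55.9, 61.2 and 55.4 CPM in KO replicates 1 to 3, against 50.5, 52.1 and 53.1 CPM in WT replicates 1 to 3. HMGA1, the relative of HMGA2, had 1673, 1396 and 1395 CPM in KO replicates 1 to 3, against 2315, 2220 and 2105 CPM in WT replicates 1 to 3. COX7B, the relative of COX7B2, had 198, 211 and 193 CPM in KO replicates 1 to 3, against 203, 197 and 213 CPM in WT replicates 1 to 3. Of the 8 that lay between, CD44, PDK2, FLT4 and SYNE2 had every KO library above every WT library, as had 33.6% of all tested genes. KIRREL2, DTNB, PDK3 and REEP2 did not. CD44, a relative of LYVE1, had 134, 36.0 and 37.4 CPM in KO replicates 1 to 3, against 0.825, 0.626 and 0.918 CPM in WT replicates 1 to 3. None of the 17 silent relatives reached 1 CPM in each KO library, where 0.411% of all genes silent in WT did, and nothing is read from the count of 0 of 17. KIRREL3, BACE1, KDR and PAPPA2 were among them, and KDR, the second VEGF receptor, had 4.24, 0.0922 and 0.129 CPM in KO replicates 1 to 3, against 0.0717, 0 and 0 CPM in WT replicates 1 to 3.

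Gene families and cell types related to the markers were read from lists in which members of the 61 were set aside. The connexin and pannexin list had 23 genes in the table, of which 6 were tested, 5 of them higher and none lower in KO, where 18.3% of all tested genes were higher, with a median log2 fold change of 2.32, against 0.02 over all tested genes. The count was 3, 1 and 2 without WT replicate 1, 2 and 3, and 3 under limma-voom. These 5 include GJA4 itself, chosen for its rise (edgeR adjusted p = 0.00641), whose call was lost without WT replicate 2 (0.0501) and under limma-voom (0.0539). Genes silent in WT enter such a test only through the KO, so these counts lean to rises. GJA3 had 2.80, 1.52 and 0.733 CPM in KO replicates 1 to 3, against 0.0717, 0.132 and 0.167 CPM in WT replicates 1 to 3 (log2 fold change 3.62, SE 0.63, edgeR adjusted p = 0.00667). GJA1, connexin 43, had 9.14, 1.34 and 0.560 CPM in KO replicates 1 to 3, against 0.143, 0.165 and 0.167 CPM in WT replicates 1 to 3 (4.38, SE 1.13, adjusted p = 0.0252). Its call was lost under limma-voom (adjusted p = 0.125) and without each of the WT libraries in turn (0.0909 to 0.0973). PANX2 and GJD3 were higher by log2 1.02 and 0.86 (adjusted p = 0.0231 and 0.0269), and PANX2 lost the call without WT replicate 2 or 3 (0.104 in both), and GJD3 without each WT library in turn (0.0923 to 0.0993) and with a replicate block (0.0521). GJB1, GJB6 and GJA10 had no counts in any library.

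The nephrin family and slit diaphragm list, which KIRREL belongs to, had 8 other genes in the table. Of 3 tested, with a median log2 fold change of 0.18, PODXL (podocalyxin) was higher, at 2.44 ± 0.627 CPM in KO and 0.815 ± 0.213 CPM in WT (SD, n = 3 each, edgeR adjusted p = 0.0179), and CD2AP was lower, at 104 ± 6.002 CPM in KO and 123 ± 7.65 CPM in WT (adjusted p = 0.0169). PODXL lost the call without each WT library in turn (0.0554 to 0.0859), and CD2AP without WT replicate 2 or 3 and with library totals alone (adjusted p = 0.0547). NPHS1, nephrin itself, had 0.247, 0.553 and 0.431 CPM in KO replicates 1 to 3, against 0, 0.0659 and 0.0835 CPM in WT replicates 1 to 3. Over all 13696 tested genes, 18.3% were higher and 15.4% lower in KO.

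FLT1, ACVRL1, LYVE1 and GJA4 are used in vascular endothelium, and the endothelial list had 19 other genes in the table. Of 8 tested, with a median log2 fold change of 0.42, ESAM and TIE1 were higher and NOS3 was lower in KO. Of all tested genes, 18.3% were higher and 15.4% lower. The list's count was 4 higher and 2 lower without KO replicate 1 and 4 higher and 1 lower without KO replicate 3. ESAM, an endothelial junction protein, had 28.3, 6.54 and 6.77 CPM in KO replicates 1 to 3, against 0.179, 0.428 and 0.334 CPM in WT replicates 1 to 3 (log2 fold change 5.32, SE 0.76, edgeR adjusted p = 0.00380). TIE1 was 0.990 ± 0.368 CPM in KO and 0.0378 ± 0.0360 CPM in WT (4.47, adjusted p = 0.00567), and NOS3 was 30.9 ± 7.78 CPM in KO and 65.9 ± 5.35 CPM in WT (-1.20, adjusted p = 0.00458). ESAM and TIE1 had few WT reads and entered the test only through their KO counts, so these 2 calls lean to rises. The list's summed level was 107 to 150 CPM in KO and 120 to 136 CPM in WT, SOX17 and EMCN had no count, and 9 of the 19 were under 1 CPM in every KO library. Among 9 tested genes of the arterial and Notch list (median log2 fold change 1.56), 4 were higher, where 18.3% of all tested genes were, with a summed level of 75.7 to 101 CPM in KO and 44.0 to 49.2 CPM in WT. They included NRP1 (log2 fold change 7.30, adjusted p = 0.00636), HEY1 (2.56, adjusted p = 0.00208) and HEY2 (3.04, adjusted p = 0.0102, lost without WT replicate 1 or 3). DLL4 stood lower in KO without passing (log2 fold change -1.004, edgeR adjusted p = 0.1525). EFNB2 (0.2897, adjusted p = 0.5322), NOTCH1 (0.2364, adjusted p = 0.0673), CXCR4 (1.556, adjusted p = 0.2803) and UNC5B (1.732, adjusted p = 0.05043) did not pass either. NRP1 and HEY2 were under 0.2 CPM in each WT library and were tested only through their KO counts. The count of 4 was 2 without WT replicate 1 or 3 and 3 without WT replicate 2 or KO replicate 2.

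Markers of other cell types were read in the same way, beside 18.3% higher and 15.4% lower in KO over all 13696 tested genes. In the megakaryocyte list 3 of 4 tested genes were higher, and the summed level was 110 to 233 CPM in KO and 4.42 to 5.24 CPM in WT. Of the defining platelet genes, PPBP had 15.8, 4.01 and 0.0862 CPM and PF4 0.124, 1.66 and 0 CPM in KO replicates 1 to 3, both with no WT count. In the K562 erythroid identity list 3 of 14 genes were higher and 2 lower, none of the 14 was under 1 CPM in every KO library, and the summed level was 18880 to 34280 CPM in KO and 18230 to 19650 CPM in WT. Of the fibroblast and smooth muscle list 1 of 3 tested was higher, with sums of 5.09 to 10.4 CPM in KO and 5.76 to 7.64 CPM in WT, and FAP was at 0. Of the epithelial list 2 of 5 were higher and 1 lower (849 to 1824 CPM in KO, 748 to 789 CPM in WT), with KRT5, KRT14, CLDN3 and GRHL2 at 0. Of the myeloid list 1 of 2 was higher (86.9 to 110 CPM in KO, 48.3 to 50.0 CPM in WT), with ELANE at 0. Of the podocyte list 1 of 2 was higher (44.1 to 55.5 CPM in KO, 48.7 to 53.0 CPM in WT). None of 2 tested genes passed in the neuron list (17.3 to 22.9 CPM in KO, 16.5 to 17.4 CPM in WT), where 5 genes were at 0. In the lymphocyte list none of 2 passed (5.35 to 16.34 CPM in KO, 4.42 to 4.55 CPM in WT), with MS4A1 at 0. No hepatocyte gene was tested (0.345 to 6.01 CPM in KO, 0 to 0.167 CPM in WT), and TTR was at 0. Apart from the megakaryocyte list, with 3 or 4 higher whichever library was left out, these counts changed when 1 library was left out. Calls over all genes also fell without a WT library, from 4619 to 2349, 2097 and 2178 without WT replicate 1, 2 and 3. Without each WT library in turn, the erythroid list had 1 higher and none lower, and the fibroblast, epithelial, myeloid and podocyte lists had none higher. Without KO replicate 1 the erythroid list had 5 higher and 3 lower, and without KO replicate 2 or 3, or with a replicate block, 1 higher and 2 lower. The epithelial list had 1 higher without KO replicate 2 or 3, with a replicate block and under limma-voom. The fibroblast call, ACTA2, was under 0.2 CPM in each WT library and entered the test only through its KO counts. ACTA2 had 0.700, 0.461 and 4.66 CPM in KO replicates 1 to 3, against 0.143, 0.0989 and 0.0417 CPM in WT replicates 1 to 3, and its call was also lost under limma-voom and with a replicate block. So was the myeloid call, CD68, which was further lost without KO replicate 1 or 3. The neuron list had none and the lymphocyte list 1 gene at an unadjusted p under 0.05, and each had 1 higher without KO replicate 1. The part of any such cells in the members' levels was not tested.

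The authors' deposited table of their own comparison lists 59 of the 61 members, all but KIRREL and PDK4, and gives each a higher level in KO. Of its 3153 genes, 88.4% are higher in KO. In the authors' deposited table the members' log2 fold changes run from 3.50 to 8.20 (median 5.01), and not all of the 59 have an adjusted p under 0.05. The authors' deposited table gives PLEK an adjusted p of 0.111, TMEM140 0.09998 and CRIM1 0.0868, and these 3 members are among the most uneven over the KO libraries. That table rests on the contrast used to choose the members and adds no independent evidence.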

How the data were processed

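Messenger RNA of 3 ARID4B knockout and 3 wild-type K562 libraries was sequenced as stranded paired ends, per the labels' protocols. The authors deposited estimated counts per gene; the submitters' processing notes name STAR 2.4, RSEM 1.2.14, hg19 and GRCh37. RSEM shares ambiguous reads, so near-identical copies are uncertain, and the sources used here do not say if the strand was used in counting. A second deposited table holds the authors' log2 fold changes and p-values.

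The 27 gene symbols stored as dates were restored from their row's description. CPM is the count over the column sum. Rounded counts were tested with edgeR 4.0.16 (R 4.3.3; quasi-likelihood, TMM, minimum count 10, Benjamini-Hochberg adjustment). A check on simulated counts gave both groups the same spread, unlike these data, so it does not cover the wider spread among KO libraries. Alternatives used limma 3.58.1, DESeq2 1.42.0, other limits and each library left out. Replicate libraries differed by more than sampling noise, and KO libraries by more than WT libraries. Between 2 libraries, chi-square per degree of freedom was 41.04 to 67.73 in KO and 3.05 to 8.12 in WT. Members, marker lists and motifs were chosen with earlier results of these data known. Per-library values were given for the leading, most and least even and nearest-limit members. Of the lists, only the connexin, slit diaphragm, endothelial, arterial and platelet genes were named with values (ACTA2 and CD68 were added after their values were seen), and 1 member and some genes of the lists are not reported here. Members, promoters and table rows were matched by accession, identifier or symbol (56 of 61 members to RefSeq). A gene at 0 in a group was set at 3 counts over the group.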

Additional observations from a re-analysis of the deposited data

How the results depend on the processing

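The count of members follows the limits. It was 29 with under 0.1 CPM in each wild-type library, 190 with under 0.5 CPM, 2 with 0 counts, 155 with 0.5 CPM or more in each knockout library, 22 with 2 CPM or more, and 54 with TMM scaling, which dropped FLT1, GLIPR1, HKR1, MUC3A, OSBPL10, PLEK and REEP1. Leaving out 1 library gave 70 to 143, the highest without KO replicate 3. The stricter CpG definition left 10 members, and the window before the start alone left 16, both counted for members only. Pooled over the 3 choices on 2 knockout libraries, the share of chosen genes on in the library left out was 59.0%, and 54.1% to 60.9% at other limits and scaling. Genes changed numbered 4619 (2512 higher) and 2097 to 5456 with 1 library left out, 2349, 2097 and 2178 of them without WT replicate 1, 2 or 3. With library totals alone, 3120 were higher and 1283 lower, since that scaling moved the median gene by 0.11 (log2). Same-numbered KO and WT libraries shared only a number (correlations of 0.012, 0.018 and 0.010 between their deviations), and a replicate block gave 3449 calls (1872 higher). ARID4B, PPP3CA, BEX2, WBP5, ACVR1B, GJA3, ESAM, TIE1, NOS3, NRP1 and HEY1 kept their calls in all 11 alternatives. No gene named with a call changed direction in any. Depth limits the wild-type side, where 1 count is 0.033 to 0.0417 CPM.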
